A study of Mus musculus with 24 samples.

Results

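A set of 9 solute carrier genes known from the brain capillary wall was followed through 24 libraries of mouse brain microvessels. They were chosen by name, as the rows of the normalized counts table that carry the symbols Slc2a1, Slc16a1, Slc7a5, Slc3a2, Slc38a5, Slc6a6, Slco1c1, Slco1a4 and Slc22a8, which makes 9 of 17270 genes. All 9 passed the filter on low values, which asked for more than 5 normalized counts on average and left 15982 genes for testing. Male C57BL/6J mice aged 10 to 12 weeks had undergone 60 min of right-sided transient middle cerebral artery occlusion (tMCAO, here called stroke) or a sham operation in which the filament was withdrawn at once. Capillary-rich vessel fragments were then isolated from the ipsilateral and the contralateral hemisphere at 24 h or at 7 days, which gives 8 groups with 3 libraries in each. Supportive care comprised warming, saline and oral feeding adapted to the state of each animal. One library held the vessels of 3 hemispheres, so that 9 animals stood behind a group and no library describes a single animal. Further libraries had been set aside by the study as outliers and are not analysed here.

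The endothelium of brain capillaries is sealed by tight junctions, so that polar nutrients reach the brain through carrier proteins in its luminal and abluminal membranes. Slc2a1 (Glut1) carries glucose, and Slc16a1 (Mct1) carries lactate, pyruvate and ketone bodies with the help of the chaperone basigin (Bsg). Slc7a5 (Lat1) exchanges large neutral amino acids and reaches the membrane bound to the heavy chain Slc3a2 (4F2hc, CD98). Slc38a5 (Snat5) takes up glutamine and Slc6a6 (TauT) takes up taurine. Slco1c1 (Oatp1c1) carries thyroxine, Slco1a4 (Oatp1a4) carries amphipathic organic anions, and Slc22a8 (Oat3) removes organic anions from the brain side.

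The deposited values are read counts that the authors had scaled with DESeq2 size factors and rounded. They are called normalized counts here, are relative to the 24 libraries together and summed to 15924780 to 18787932 per library. A difference was fitted with limma on log2(normalized count + 1), with all 8 groups in the fit. It was called when the Benjamini-Hochberg adjusted p over all genes tested was under 0.05 and the change passed 1.5-fold. Errors of a log2 fold change are standard errors of this fit. Of the 12 endothelial markers checked, among them Pecam1, Cdh5 and Cldn5, none was at 0 in any library, and their sum lay between 182729 and 262558 normalized counts. In RNA of whole vessels, fewer cells of a type and less RNA per cell cannot be told apart. The pool numbered 3 of the sham-operated mice at 7 days stood apart for Slc2a1 in both hemispheres (209774 contralaterally and 206001 ipsilaterally, against 88230 to 100762 in the other 4 libraries of these groups). The stroke effects of Slc2a1 and Slc3a2 at 7 days are given with and without it, and correlations only with it.

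RefSeq promoters of GRCm38.p6, the mm10 build, were at hand for 7 of the 9 genes and not for Slc7a5 and Slc6a6. Those of Slc16a1, Slco1c1, Slco1a4 and Slc22a8 are shown because these 4 genes moved together, as described below. Each sequence is the 250 bases before the transcription start, 5′ to 3′ on the strand of the gene. Slc16a1 lies at chr3:104638414-104638663 (plus strand), Slco1c1 at chr6:141524104-141524353 (plus strand), Slco1a4 at chr6:141856221-141856470 (minus strand) and Slc22a8 at chr19:8592932-8593181 (plus strand, inside the gene as the deposited table bounds it). Capitals mark every match to the motifs listed in the next paragraph and, in Slco1c1 and Slco1a4, the run of letters that these genes share.
Slc16a1: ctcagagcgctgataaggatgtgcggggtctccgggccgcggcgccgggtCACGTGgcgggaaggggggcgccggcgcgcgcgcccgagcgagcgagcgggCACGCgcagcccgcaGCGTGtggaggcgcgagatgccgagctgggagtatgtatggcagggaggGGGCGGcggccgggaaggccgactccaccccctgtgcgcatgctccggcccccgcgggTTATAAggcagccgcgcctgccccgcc
Slco1c1: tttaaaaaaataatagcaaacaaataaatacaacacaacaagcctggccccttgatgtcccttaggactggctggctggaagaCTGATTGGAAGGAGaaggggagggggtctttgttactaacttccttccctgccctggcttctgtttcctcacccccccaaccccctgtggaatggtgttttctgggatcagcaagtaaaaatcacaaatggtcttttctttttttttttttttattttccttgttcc
Slco1a4: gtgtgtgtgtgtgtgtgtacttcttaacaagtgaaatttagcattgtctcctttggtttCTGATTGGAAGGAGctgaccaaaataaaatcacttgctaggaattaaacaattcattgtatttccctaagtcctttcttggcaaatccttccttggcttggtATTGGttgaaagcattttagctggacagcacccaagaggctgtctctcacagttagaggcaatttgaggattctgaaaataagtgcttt
Slc22a8: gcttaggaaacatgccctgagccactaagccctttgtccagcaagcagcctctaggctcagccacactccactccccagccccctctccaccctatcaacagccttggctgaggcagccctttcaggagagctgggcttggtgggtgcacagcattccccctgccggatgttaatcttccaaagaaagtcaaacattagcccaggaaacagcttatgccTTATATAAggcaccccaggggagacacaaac

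The promoter of Slc16a1 was rich in GC (76.4%), while those of Slco1c1 (42.8%), Slco1a4 (39.2%) and Slc22a8 (55.2%) lay nearer to the median of 52.4% over 32851 promoters. Slco1c1 and Slco1a4, organic anion transporters that are 235 kb apart on chromosome 6, shared the run CTGATTGGAAGGAG, which starts 167 and 191 bases before their starts. Of all 32851 promoters 2 held these 14 letters, those of Slco1c1 and Slco1a4. Among the 21 pairs of members with a promoter, no other pair shared more than 10 letters. The core of the hypoxia response element, written ACGTG or GCGTG, occurred on either strand in 4 of 7 members (Slc2a1, Slc16a1, Slc3a2 and Slc38a5) and in 38.6% of all promoters. In Slc16a1 the letters CACGTG hold this core on both strands. The GC box GGGCGG was found in the same 4 genes and in 32.7% of all promoters. A TATA box, searched as TATAA, was found in Slc16a1 and Slc22a8 and in 22.8% of all promoters. The CCAAT box was found in Slco1c1 and Slco1a4, in both within the shared run and in Slco1a4 at a further place, and in 33.8% of all promoters. The TCF/LEF core TCAAAG was present in Slc3a2 and in 13.8% of all promoters. The CREB/ATF core TGACG (17.8% of all promoters) and the C/EBP-ATF element TGATGNAA (3.45%) had no match in these windows. Such matches describe the letters of the window and are not evidence of binding.

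**Figure D1:**
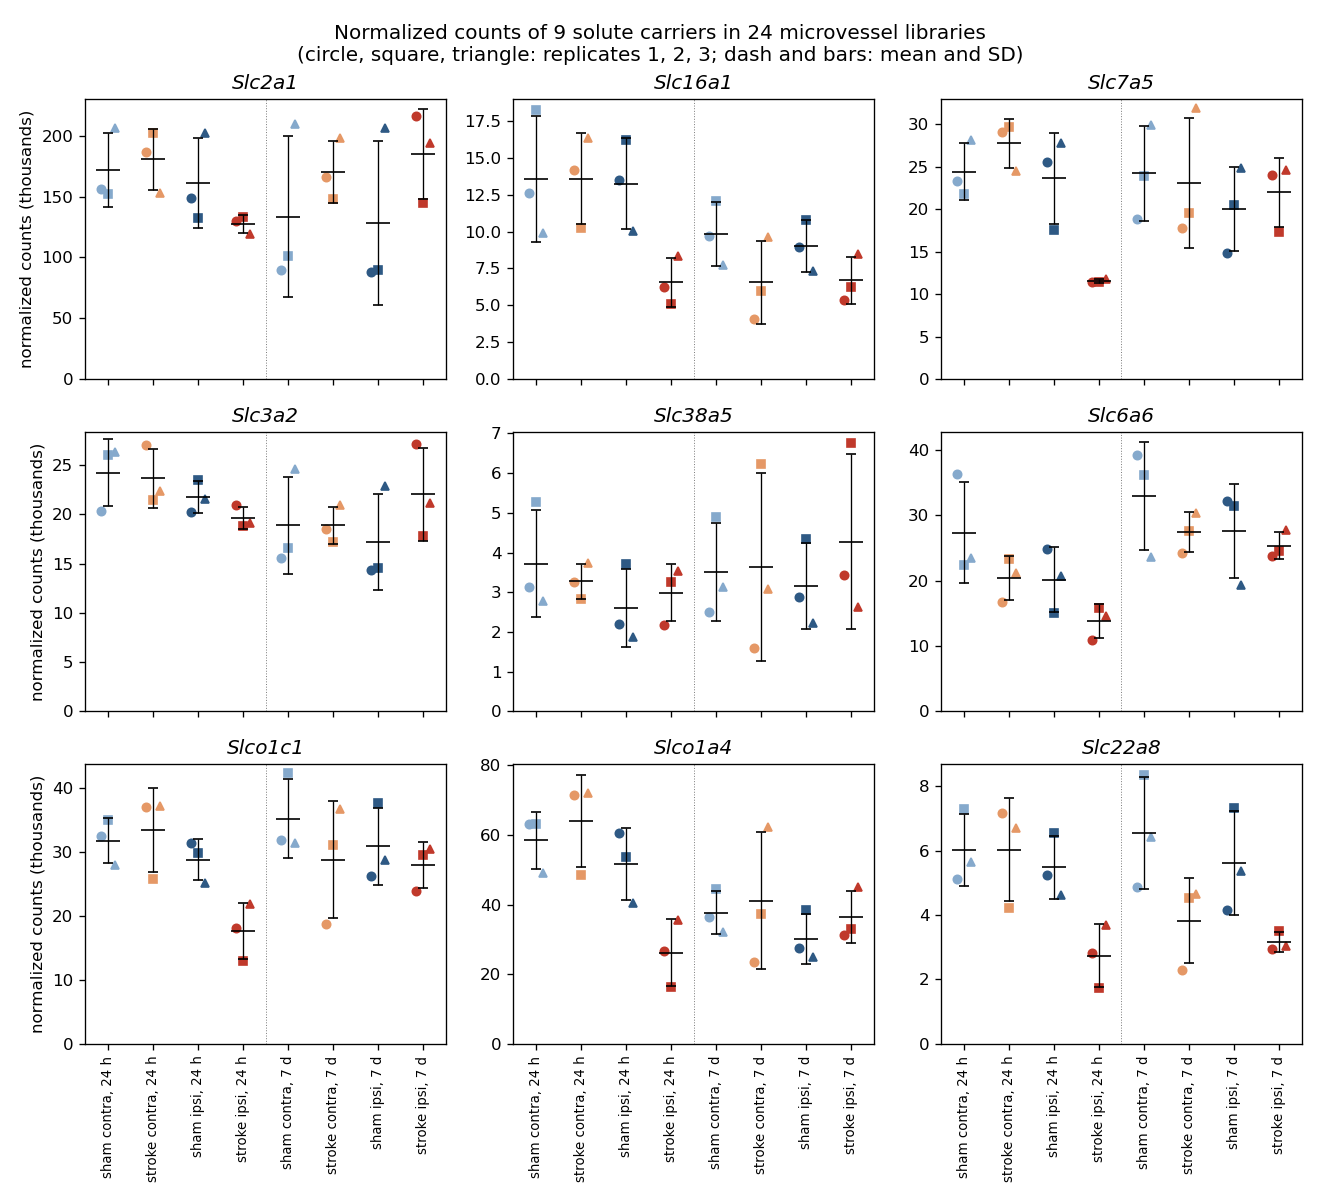
Normalized counts (vertical axes from 0, scaled as labelled) of the 9 carriers in the 8 groups, with each library as a point, the mean as a dash and the SD as a bar. At 24 h the 3 stroke ipsilateral libraries of Slc7a5 lie at 11411 to 11826, below the other 21 libraries, and at 7 days the number 3 pool of sham mice stands above the others for Slc2a1.

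In mm10 coordinates the genes lie at chr4:119108711-119137983 (Slc2a1, plus strand), chr3:104638668-104658462 (Slc16a1, plus), chr8:121881150-121907694 (Slc7a5, minus), chr19:8706882-8723369 (Slc3a2, minus), chrX:8271151-8280179 (Slc38a5, plus), chr6:91684053-91759066 (Slc6a6, plus), chr6:141524386-141570177 (Slco1c1, plus), chr6:141805440-141856171 (Slco1a4, minus) and chr19:8591254-8611834 (Slc22a8, plus). All are protein-coding, and Slc3a2 and Slc22a8 are 95 kb apart.

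Slc2a1 was the most abundant of the 9 transcripts. It took 0.554% to 1.21% of the normalized counts of a library, and its median rank among all genes was 1. Divided by the annotated exon length in kb, its level was 44855 ± 11876 normalized counts per kb (SD over the 24 libraries), and it was above Slco1a4, the next in order, in 24 of 24 libraries. Slco1a4 (6732 ± 2468), Slc7a5 (5960 ± 1632), Slc3a2 (5892 ± 1067) and Slco1c1 (5643 ± 1337) followed. These neighbours did not differ beyond their spread, since Slco1a4 exceeded Slc7a5 in 17, Slc7a5 exceeded Slc3a2 in 15 and Slc3a2 exceeded Slco1c1 in 14 of 24 libraries. A clear step separated Slco1c1 from Slc6a6 (2884 ± 861 per kb), with Slco1c1 higher in 24 of 24 libraries. Slc16a1 (2234 ± 859), Slc38a5 (1516 ± 579) and Slc22a8 (1261 ± 450) closed the order, with each above the next in 20 and 15 of 24 libraries and Slc6a6 above Slc16a1 in 17. The 9 genes together took 1.27% to 1.46% of the normalized counts in the stroke ipsilateral libraries at 24 h, and 1.38% to 2.36% in the other 21 libraries.

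In the ipsilateral hemisphere 24 h after stroke, 5 of the 9 carriers fell against sham and none rose. They were Slc16a1, Slc7a5, Slco1c1, Slco1a4 and Slc22a8, with log2 fold changes from -0.73 to -1.05. Over all genes, 8.23% were called lower and 10.0% higher in this comparison. The median log2 fold change of the 9 was -0.73, beside -0.02 over all genes tested. Against the contralateral hemisphere of stroke mice, the same 5 genes fell, with log2 fold changes from -0.93 to -1.33, with 5.14% of all genes lower and 8.51% higher. Both comparisons use the same stroke ipsilateral libraries, so the second is no independent repeat of the first. The other 4 members, Slc2a1, Slc3a2, Slc38a5 and Slc6a6, were not called in either comparison.

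The summed endothelial markers were not lower in these libraries. They reached 183283 to 223779 normalized counts in the stroke ipsilateral libraries at 24 h, 182729 to 205079 in sham ipsilateral and 193294 to 223780 in stroke contralateral libraries. Against sham, 1 of the 12 markers rose (Emcn, 0.85) and 1 fell (Ptprb, -0.59). Markers of other cells did differ from sham. The neutrophil and monocyte markers summed to 3081 to 6111 in stroke ipsilateral against 333 to 1246 in sham ipsilateral libraries, and all 6 of those tested rose, while Ly6g was at 0 in a sham library and Mpo was not in the table. The sum of the pericyte and mural markers was 84092 to 152442 against 152353 to 178200, with 2 of 11 lower and no marker at 0. Astrocyte markers (6 of 8 lower, 11731 to 17785 against 18374 to 27003) and neuron markers (4 of 8 lower, 2962 to 3546 against 5767 to 6177) were below sham, and none of them was at 0 in a library. Against stroke contralateral libraries, 2 of 6 neutrophil and monocyte markers rose and 4 of 8 neuron markers fell. Their contralateral sums of 574 to 997 and 4640 to 6922 did not overlap the stroke ipsilateral ones. Lower were also 2 of 11 pericyte and mural and 3 of 8 astrocyte markers. The contralateral sums of these, 127309 to 184720 and 14221 to 21722, overlapped those of stroke ipsilateral libraries. The part of these cell types in the fall of the carriers was not tested.

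**Figure D2:**
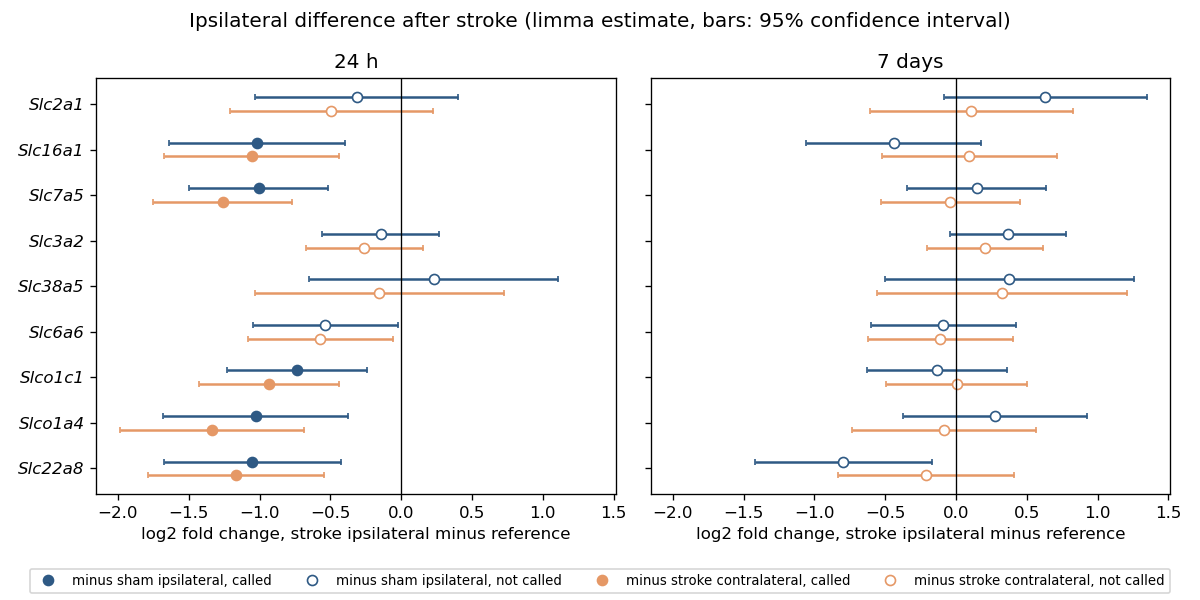
Log2 fold changes (horizontal axis) of the 9 carriers in stroke ipsilateral microvessels against sham ipsilateral and stroke contralateral libraries, at 24 h and at 7 days, with 95% confidence intervals. Filled points mark called differences, which are 5 in each comparison at 24 h, between -0.73 and -1.33, and none at 7 days.

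Slc2a1, the glucose carrier, was not called at 24 h. Its normalized counts were 129950, 133462 and 119196 in the stroke ipsilateral, 148717, 132108 and 202531 in the sham ipsilateral, and 186365, 202313 and 153181 in the stroke contralateral libraries. The stroke libraries overlapped the sham libraries and lay below every contralateral library. The log2 fold change was -0.31 ± 0.34 against sham (adjusted p = 0.51) and -0.49 ± 0.34 against contralateral (adjusted p = 0.309). In a limma fit with same-numbered hemispheres as pairs, a pairing not established for stroke mice, the latter was -0.49 ± 0.14 (adjusted p = 0.0127). It stayed uncalled there because it did not pass 1.5-fold. The 95% confidence interval of Slc2a1 against sham ran from -1.03 to 0.40, so that a fall of the size found for Slc7a5 lay within it.

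Slc16a1, the monocarboxylate carrier, fell 2.02-fold against sham in the fit. Its values were 6254, 5091 and 8318 in stroke ipsilateral libraries, 13491, 16219 and 10043 in sham ipsilateral and 14194, 10256 and 16337 in stroke contralateral libraries, without overlap. The change was -1.02 ± 0.30 against sham (adjusted p = 0.0145) and -1.06 ± 0.30 against contralateral (adjusted p = 0.0136). The call against sham was lost without sham library 2 (-0.86, adjusted p = 0.0652) or stroke library 2 (-0.85, 0.0736), and that against contralateral without contralateral library 3 (-0.91, 0.0645) or stroke library 2 (-0.89, 0.0705). Its chaperone Bsg fell as well, from 75937 ± 3578 (SD) in sham to 42163 ± 6153 (-0.86 ± 0.21, adjusted p = 0.00467), and at 7 days it was at 99019, a rise of 1.23 ± 0.21 over 24 h (adjusted p = 0.000502). Sham ipsilateral libraries also had more Bsg at 7 days (123999 ± 17085, SD) than at 24 h, and the change of the stroke effect between the time points was not called (0.53 ± 0.30, adjusted p = 0.268). Slc16a1 in the same libraries was at 6694 at 7 days and 6554 at 24 h, a difference of 0.03 ± 0.30 (adjusted p = 0.954). The 95% confidence interval of that difference, -0.59 to 0.65, lay below the rise of Bsg.

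Slc7a5, the light chain for large neutral amino acids, had the smallest adjusted p of the members at 24 h in both comparisons. All 3 stroke ipsilateral libraries at 24 h were within a narrow range (11460, 11411 and 11826), whereas sham ipsilateral libraries had 25524, 17604 and 27779 and stroke contralateral libraries 29136, 29706 and 24494. The log2 fold change was -1.0 ± 0.24 against sham (adjusted p = 0.0036) and -1.26 ± 0.24 against contralateral (adjusted p = 0.000701). It was called in all 6 fits that left out 1 library, in each of both comparisons. An annotated gene, Gm20388, overlaps Slc7a5 on the other strand, and annotated antisense genes overlap Slc2a1. The library kit kept the strand, but whether reads were counted by strand is not given in the sources used here, so reads of such overlapping genes may be contained in these values.

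The heavy chain Slc3a2, unlike its partner, was not called at 24 h. It was at 20945, 18854 and 19167 in stroke ipsilateral, 20282, 23457 and 21542 in sham ipsilateral and 27045, 21489 and 22385 in stroke contralateral libraries. The change of -0.15 ± 0.20 against sham was not called (adjusted p = 0.604). Its 95% confidence interval of -0.56 to 0.27 did not reach the estimate for Slc7a5, but overlapped the interval of Slc7a5 (-1.49 to -0.51). To compare both chains within a library, where the scaling cancels, the ratio of Slc7a5 to Slc3a2 was taken, a measure chosen after the values were seen. The ratio was 0.547, 0.605 and 0.617 in the stroke ipsilateral libraries at 24 h and lay between 0.75 and 1.53 in the other 21 libraries. These 3 libraries therefore stood below all others. The mean log2 ratio was lower by -0.86 than in sham ipsilateral and by -1.0 than in stroke contralateral libraries, each with p = 0.1 in a 2-sided exact permutation test, the smallest p that 3 against 3 libraries allow (adjusted p = 0.175 over 14 comparisons of ratios). At 7 days the stroke ipsilateral ratios were 0.886, 0.968 and 1.17, and those of sham ipsilateral libraries were 1.04, 1.41 and 1.09. The groups overlapped through the ratio of 1.17, while 0.886 and 0.968 lay below every sham ipsilateral library. The mean log2 ratio differed from sham ipsilateral by -0.22, with an exact permutation p of 0.4.

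**Figure D3:**
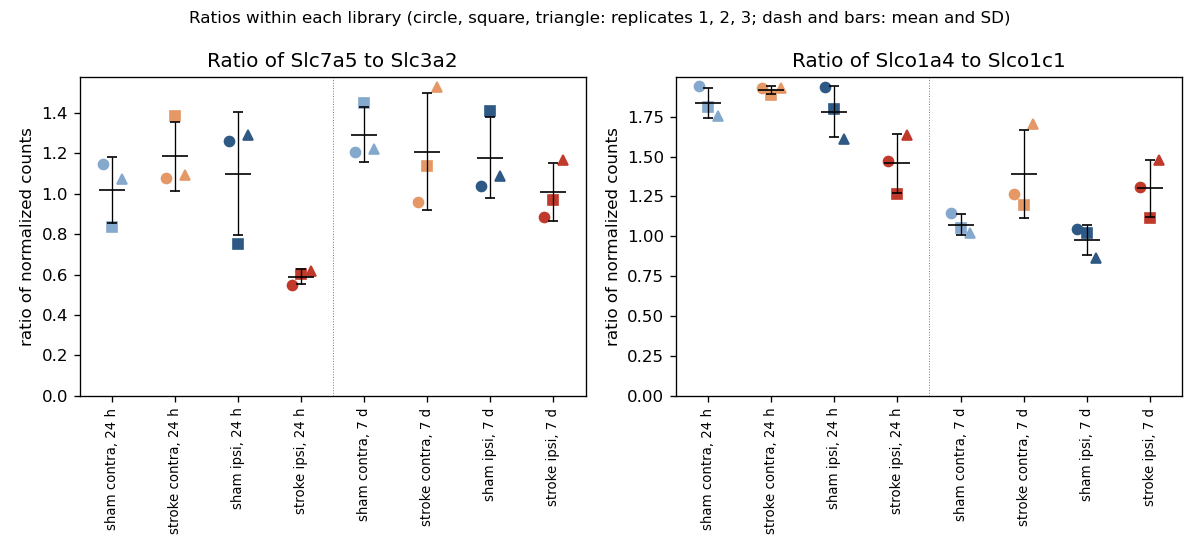
Ratios of normalized counts within each library (vertical axes from 0) for Slc7a5 to Slc3a2 and for Slco1a4 to Slco1c1, by group, with the mean as a dash and the SD as a bar. The Slc7a5 to Slc3a2 ratio of the stroke ipsilateral libraries at 24 h (0.547 to 0.617) lies below those of the other 21 libraries, and the Slco1a4 to Slco1c1 ratio is lower in sham libraries at 7 days than at 24 h.

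Slc38a5, a glutamine carrier, varied widely among libraries of the same group. It had 2180, 3248 and 3544 in stroke ipsilateral libraries at 24 h, 2210, 3723 and 1886 in sham ipsilateral and 3273, 2842 and 3728 in stroke contralateral libraries. The difference of 0.23 ± 0.42 against sham (adjusted p = 0.707) had a 95% confidence interval of -0.65 to 1.11. Over all libraries it ranged 4.22-fold, from 1606 in stroke contralateral library 1 to 6771 in stroke ipsilateral library 2, both at 7 days.

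Slc6a6, the taurine carrier, was at 10894, 15841 and 14671 in stroke ipsilateral, 24822, 15028 and 20666 in sham ipsilateral and 16769, 23351 and 21149 in stroke contralateral libraries at 24 h. The stroke libraries overlapped sham through sham library 2 and lay below all contralateral libraries. Differences of -0.54 ± 0.25 (adjusted p = 0.104) and -0.57 ± 0.25 (adjusted p = 0.0966) were not called. Without sham library 2 the first became -0.73 and was called (adjusted p = 0.0497). In a limma fit with same-numbered hemispheres as pairs, a pairing not established for stroke mice, the difference from contralateral was -0.57 ± 0.09 (adjusted p = 0.000275). It stayed uncalled there because it did not pass 1.5-fold.

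Slco1c1, the thyroxine carrier, fell by 0.73 ± 0.24 against sham on the log2 scale (adjusted p = 0.0254) and by 0.93 ± 0.24 against contralateral (adjusted p = 0.00729). Its values of 18101, 12957 and 21755 in stroke ipsilateral libraries lay below 31359, 29860 and 25101 in sham ipsilateral and 37033, 25746 and 37194 in contralateral libraries. Against sham it had the largest adjusted p of the 5, while against contralateral that of Slc16a1 was larger. The call against sham was lost without sham library 1 (-0.67, adjusted p = 0.0888), sham library 2 (-0.70, 0.0662), stroke library 1 (-0.77, 0.052) or stroke library 2 (-0.53, 0.142), and against contralateral without stroke library 2 (-0.73, 0.0537).

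Slco1a4, the other organic anion transporting polypeptide, showed the largest fall of the members against the contralateral hemisphere. It was at 26681, 16408 and 35503 in stroke ipsilateral, 60644, 53721 and 40458 in sham ipsilateral and 71414, 48598 and 71865 in stroke contralateral libraries, without overlap. The changes were -1.03 ± 0.31 against sham (adjusted p = 0.0181) and -1.33 ± 0.31 against contralateral (adjusted p = 0.00406). The latter was called in all 6 fits without 1 library, while the former was lost without sham library 1 (-0.90, adjusted p = 0.0783), sham library 2 (-0.99, 0.0508) or stroke library 2 (-0.73, 0.117). Reads that matched several places had been excluded by the authors, which may lower genes with close relatives such as the Slco1a group.

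Slc22a8, the organic anion carrier, was the least abundant of the 5. Its libraries had 2812, 1726 and 3683 normalized counts in stroke ipsilateral, 5255, 6562 and 4626 in sham ipsilateral and 7175, 4207 and 6708 in stroke contralateral samples, without overlap. It changed by -1.05 ± 0.30 against sham (adjusted p = 0.0125) and by -1.17 ± 0.30 against contralateral (adjusted p = 0.00749). The first call was lost without sham library 2 (-0.91, adjusted p = 0.0541) or stroke library 2 (-0.75, 0.0872), and the second without stroke library 2 (-0.87, 0.0579). Stroke library 2 held the lowest value of Slc16a1, Slco1c1, Slco1a4 and Slc22a8 in its group.

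At 7 days no member was called against sham ipsilateral libraries by limma, where 3.27% of all genes were called higher and 9.95% lower, and 1 member had an unadjusted p under 0.05. This was Slc22a8, with 2932, 3517 and 3032 in stroke and 4163, 7332 and 5358 in sham libraries, which did not overlap (-0.80 ± 0.30, adjusted p = 0.0756). It was called with only the 2 compared groups in the fit (adjusted p = 0.0446) and when libraries were centred on the endothelial markers (-1.03, adjusted p = 0.0277). The choroid plexus, an epithelium that also expresses Slc22a8, left a variable trace in these libraries. Its 10 markers summed to 682 to 3218 in stroke ipsilateral and 16149 to 29325 in sham ipsilateral libraries, 7 of 10 were lower, and none was at 0. Their part in the value of Slc22a8 was not tested. The endothelial markers summed to 226325 to 262558 in stroke ipsilateral libraries at 7 days, above 212283 to 216607 in sham ipsilateral, with 1 of 12 called higher (Egfl7).

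Against the stroke contralateral hemisphere at 7 days, again 0 members were called by limma, and 0 had an unadjusted p under 0.05, with 3.03% of all genes higher and 9.98% lower. The largest difference was that of Slc38a5 (0.32 ± 0.42), and Slc22a8 was at -0.21 ± 0.30 with contralateral values of 2294, 4537 and 4661. The contralateral libraries of stroke mice were below sham contralateral (4864, 8357 and 6414) by about as much as the ipsilateral ones were below sham ipsilateral, without overlap and without a call (-0.81 ± 0.30, adjusted p = 0.38). Slc16a1 was at 5345, 6258 and 8480 ipsilaterally in stroke mice and at 8952, 10811 and 7308 in sham mice (-0.44 ± 0.30, adjusted p = 0.355). Contralaterally it was at 4047, 5968 and 9641 in stroke and 9674, 12096 and 7733 in sham mice (-0.65 ± 0.30, adjusted p = 0.459). The groups overlapped in both hemispheres, and neither difference was called.

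Slc2a1 at 7 days depended on the sham pool that stands apart. Stroke ipsilateral libraries had 216414, 144551 and 194319 normalized counts, and sham ipsilateral libraries had 88230, 89902 and 206001. With all libraries the log2 fold change was 0.63 ± 0.34 (adjusted p = 0.232). Without both hemispheres of the pool numbered 3 it was 1.04 ± 0.27 and was called (adjusted p = 0.0147), and without its ipsilateral library alone it was 1.04 ± 0.33 (adjusted p = 0.043). Slc3a2, with 27102, 17845 and 21147 in stroke and 14336, 14514 and 22845 in sham libraries, behaved alike (0.37 ± 0.20, adjusted p = 0.225, with all libraries, and 0.59 ± 0.17, adjusted p = 0.0233, without that pool). The remaining members were at 0.15 ± 0.24 (Slc7a5), -0.09 ± 0.25 (Slc6a6), -0.13 ± 0.24 (Slco1c1) and 0.27 ± 0.31 (Slco1a4) with all libraries, none of them called.

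Between 24 h and 7 days in the stroke ipsilateral hemisphere, 3 of the 9 carriers rose, beside 3.72% of all genes called higher and 8.44% called lower. Slc7a5 went from 11411 to 11826 at 24 h to 24018, 17279 and 24682 at 7 days (0.91 ± 0.24, adjusted p = 0.0109) and was called in all 6 fits without 1 library. Slc6a6 went to 23818, 24579 and 27683 (0.89 ± 0.25, adjusted p = 0.0153), a call that was lost without stroke library 1 at 24 h (0.73, adjusted p = 0.0922) or stroke library 3 at 7 days (0.83, 0.0567). Its time differences in sham ipsilateral (0.45 ± 0.25, adjusted p = 0.429) and stroke contralateral libraries (0.43 ± 0.25, adjusted p = 0.392) pointed the same way, and its interaction was not called (0.45 ± 0.35, adjusted p = 0.439). Slco1c1 went to 23828, 29495 and 30439 (0.69 ± 0.24, adjusted p = 0.0474). This last call was lost without stroke library 1 (0.73, adjusted p = 0.099) or 2 (0.48, 0.213) of 24 h, without library 2 (0.65, 0.117) or 3 (0.62, 0.137) of 7 days, and under endothelial centring (0.47, 0.177). Slco1a4 was at 31140, 32943 and 44953 at 7 days (0.52 ± 0.31, adjusted p = 0.256), and Slc22a8 stayed within 2932 to 3517 (0.27 ± 0.30, adjusted p = 0.569). In the same comparison 5 of 8 neuron markers fell and 1 rose (2962 to 3546 at 24 h and 2570 to 3186 at 7 days in sum), 4 of 10 choroid plexus markers fell (7995 to 20924 and 682 to 3218), 2 of 5 proliferation markers rose (1174 to 1420 and 980 to 1364) and 2 of 12 endothelial markers rose (183283 to 223779 and 226325 to 262558), none of them at 0 in these libraries. Their part in the rise of the carriers was not tested.

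Whether the ipsilateral difference from sham changed between the time points was tested as an interaction, in which Slc7a5 was the 1 member called (1.15 ± 0.33, adjusted p = 0.0324), beside 2.43% of all genes higher and 5.68% lower. Its difference from sham was -1.0 at 24 h and 0.15 at 7 days. The call was lost in 7 of 12 fits that left out 1 library, namely sham ipsilateral libraries 1 and 3 and stroke ipsilateral libraries 1 and 2 at 24 h, sham ipsilateral library 1 and stroke ipsilateral libraries 1 and 3 at 7 days, with values from 0.951 to 1.144 and adjusted p from 0.0591 to 0.0858. Slco1a4 had the largest estimate (1.30 ± 0.44, adjusted p = 0.065), and it was called without stroke ipsilateral library 3 of 24 h (1.56, adjusted p = 0.0319). The larger part of this estimate lay in sham ipsilateral libraries, which differed by -0.78 ± 0.31 between 24 h and 7 days. In stroke ipsilateral libraries Slco1a4 differed by 0.52 ± 0.31, and neither time difference was called. Slc2a1 was at 0.95 ± 0.49 (adjusted p = 0.222) with all libraries and was called without the sham pool numbered 3 of 7 days (1.35, adjusted p = 0.0278).

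In 7 comparisons among control groups, 0 members were called by limma. Contralateral libraries of stroke and sham mice had 0% of all genes called in either direction at 24 h and 0.0313% at 7 days. There 0 and 2 members had an unadjusted p under 0.05, beside 405 and 1639 of 15982 genes. The sham hemispheres had 0% called at 24 h and 0% at 7 days, with 0 members under 0.05, beside 367 and 359 genes. The time comparisons had 0.476% called in sham ipsilateral, 0.332% in sham contralateral and 0% in stroke contralateral libraries. Under 0.05 were 1, 0 and 3 members, beside 2258, 1729 and 2637 genes. The largest such differences were those of Slc16a1, Slc22a8 and Slco1a4. Slc22a8 was lower in stroke than in sham contralateral libraries at 7 days, as given above (-0.81). Slc16a1 in the contralateral hemisphere of stroke mice was at 14194, 10256 and 16337 at 24 h and 4047, 5968 and 9641 at 7 days, without overlap (-1.12 ± 0.30, adjusted p = 0.123), and it was the 1 member called when stroke contralateral library 3 of 7 days was left out. Slco1a4 was lower at 7 days than at 24 h in sham mice of both hemispheres without overlap, with 27405, 38288 and 24820 ipsilaterally (-0.78 ± 0.31, adjusted p = 0.257) and 36529, 44340 and 32096 contralaterally (-0.64 ± 0.31, adjusted p = 0.469).

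The neighbouring relative Slco1c1 did not show this difference between the sham time points, with 0.09 ± 0.24 ipsilaterally and 0.14 ± 0.24 contralaterally. The ratio of Slco1a4 to Slco1c1 within a library, also chosen after the values were seen, was 1.61 to 1.93 in sham ipsilateral libraries at 24 h and 0.866 to 1.05 at 7 days. In sham contralateral libraries it was 1.76 to 1.94 at 24 h and 1.02 to 1.15 at 7 days. The mean log2 ratio differed by -0.87 and -0.78 between the time points, each with an exact permutation p of 0.1, the smallest possible (adjusted p = 0.175). In stroke mice the ipsilateral ratio was 1.27 to 1.63 at 24 h and 1.12 to 1.48 at 7 days, where it lay above every sham ipsilateral library (exact permutation p = 0.1). The sources used here name no batches or dates, so the time after surgery and a batch of the time points cannot be told apart.

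In sham mice the ipsilateral value lay slightly below the contralateral value of the same number for most members. Same-numbered sham libraries were taken as pairs because their values correlated, as the sources used here do not state the pairing. Of 6 pairs all 6 were lower ipsilaterally for Slc2a1, Slc3a2, Slc6a6, Slco1c1 and Slco1a4, 5 for Slc7a5, Slc38a5 and Slc22a8, and 4 for Slc16a1. Such pairs were not counted over all genes. The median log2 difference of the 9 was -0.14 at 24 h and -0.19 at 7 days, beside -0.014 and -0.0017 over all genes. It was -0.07 and -0.10 for the endothelial and 0.47 and 0.49 for the astrocyte markers, whose part was not tested. Slc6a6 had differences of -0.55, -0.57 and -0.18 on the log2 scale at 24 h and -0.28, -0.21 and -0.29 at 7 days. With the pool as a block, its adjusted p was 0.196 at 24 h and 0.715 at 7 days, and 0 members were called by limma. Slc38a5 was lower by 0.50 to 0.56 in the 3 pairs at 24 h and differed by 0.20, -0.18 and -0.49 at 7 days.

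**Figure D4:**
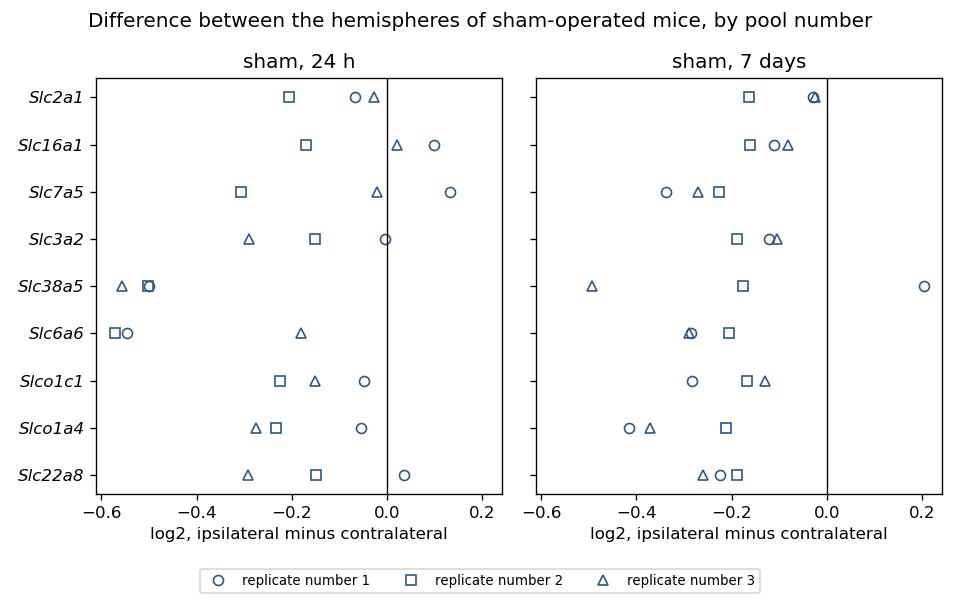
Log2 difference of normalized counts, ipsilateral minus contralateral (horizontal axis), for each of the 3 same-numbered pairs of sham libraries at 24 h and at 7 days. Most points lie left of 0, and Slc6a6 is lower ipsilaterally in all 6 pairs.

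Among themselves the carriers fell into sets that varied together. Over the 36 pairs, Pearson r of the log2 values over 24 libraries ran from -0.47 (Slc3a2 and Slc6a6) to 0.87 (Slco1c1 and Slc22a8), with a median of 0.30 and 12 pairs over 0.5. These are descriptions, and the libraries share the groups and the scaling. After the group means were taken off, Slc16a1, Slco1a4, Slco1c1 and Slc22a8 kept r of 0.73 to 0.94 with each other, the highest between Slco1a4 and Slco1c1. Slc2a1 varied with Slc3a2 (0.81) and Slc7a5 (0.77) and against Slc6a6 (-0.51), Slc38a5 (-0.46) and Slc16a1 (-0.44). Slc7a5 thus fell with the first set at 24 h, while within groups its r with those 4 genes was between -0.02 and 0.21. Slc3a2 and Slc6a6 went in opposite directions within groups (-0.78). The sham pool numbered 3 of 7 days, which stood apart for Slc2a1, did so for these genes too. Contralaterally and ipsilaterally it had 24554 and 22845 for Slc3a2, against 14336 to 16539 in the other sham libraries of 7 days. For Slc6a6 it had 23606 and 19319, against 31408 to 39156. No r was computed without this pool, so how far the r of Slc2a1, Slc3a2, Slc7a5 and Slc6a6 rest on it is not known.

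Marker sums also varied with these sets. Over the 24 libraries, the mean log2 level of the pericyte and mural markers had r of 0.76 with Slc16a1, 0.74 with Slc22a8, 0.61 with Slco1a4 and 0.56 with Slco1c1, and that of the endothelial markers had r of -0.30, -0.30, -0.18 and -0.03 with them. Other lists varied with these 4 genes as well, with r of 0.43 to 0.75 for the fibroblast and -0.57 to -0.70 for the neutrophil and monocyte markers. Within groups, r was 0.62 to 0.63 for the pericyte and mural markers and -0.63 to -0.70 for the astrocyte markers. Slc6a6 had r of -0.77 with the neutrophil and monocyte markers, and -0.85 within groups. Whether these cells take part in the values was not tested.

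**Figure D5:**
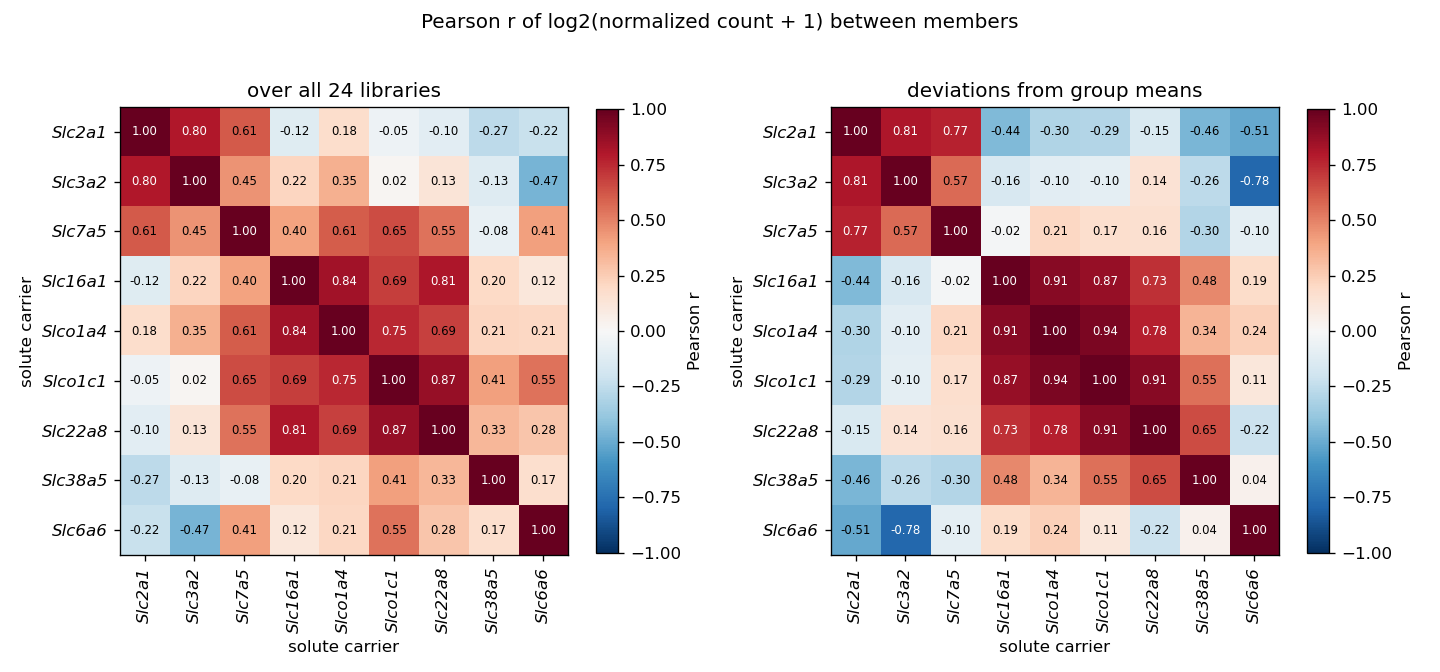
Pearson r between the members (both axes list the 9 carriers) from log2(normalized count + 1), over all 24 libraries on the left and for deviations from group means on the right. On the right, Slc16a1, Slco1a4, Slco1c1 and Slc22a8 form a block with r of 0.73 to 0.94, and Slc2a1, Slc3a2 and Slc7a5 form another with 0.57 to 0.81.

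The genes outside the 9 with the most similar pattern over the 24 libraries, by Pearson r, were Hipk1 (0.95), Doc2b (0.95) and Paqr5 (0.94) for Slc2a1, and Ndnf (0.94), Hpgd (0.90) and Hcar1 (0.89) for Slc16a1. For Slc7a5 they were Sgms1 (0.94), Rad21 (0.91) and Rnf146 (0.91), and for Slc3a2 they were Eci2 (0.90), Pnpla2 (0.89) and Adtrp (0.88). Slco1a4 was most like Slc39a10 (0.94), itself a zinc carrier, Gatm (0.94) and Nanos1 (0.91). Slco1c1 was most like Epm2a (0.92), Akr1c14 (0.92) and Rbbp9 (0.91), and Slc22a8 was most like Car4 (0.90), the membrane-bound carbonic anhydrase of brain capillaries, Cmbl (0.88) and Otud1 (0.87). Slc6a6 followed Kazald1 (0.89), Rassf3 (0.89) and Cavin1 (0.88). Slc38a5 had the weakest likeness, with Adam17 (0.81), Sytl4 (0.79) and Kdelc2 (0.78).

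Of 25 other carriers described at brain capillaries, 24 were in the table. At 24 h 5 of these fell against sham and 0 rose, beside 8.23% lower and 10.0% higher over all genes, with a median log2 fold change of -0.26 beside -0.02 over all genes. The largest falls were those of the thiamine carrier Slc19a3 (-1.59 ± 0.18, adjusted p = 4.02e-06), the cationic amino acid carrier Slc7a1 (-0.92 ± 0.25, adjusted p = 0.00977) and the zinc carrier Slc39a10 (-0.90 ± 0.30, adjusted p = 0.0284). Against contralateral 8 of 24 fell and 0 rose, beside 5.14% lower and 8.51% higher over all genes, again led by Slc19a3 (-1.54 ± 0.18), Slc39a10 (-1.16 ± 0.30) and Slc16a4 (-1.15 ± 0.40). At 7 days against sham, where 3.27% of all genes were higher and 9.95% lower, 1 rose, the organic anion transporter Slco2b1 (0.83 ± 0.21, adjusted p = 0.00893), and 1 fell, the iron exporter Slc40a1 (-0.76 ± 0.19, adjusted p = 0.0071). Against contralateral at 7 days Slco2b1 rose (0.66 ± 0.21) and 0 fell, beside 3.03% higher and 9.98% lower over all genes.

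Of 29 partners and relatives of the members, 27 were in the table, without Slco1a1 and Slco1a6. At 24 h against sham 3 rose and 6 fell, beside 10.0% of all genes higher and 8.23% lower. The prostaglandin carrier Slco2a1 rose most (1.69 ± 0.21, adjusted p = 1.31e-05), followed by Slc7a6 (0.85 ± 0.13) and Slc7a7 (0.63 ± 0.15), alternative light chains of Slc3a2. Their levels remained far below that of Slc7a5, with means of 345 for Slc7a6 and 379 for Slc7a7 in the stroke ipsilateral libraries, against 11566 for Slc7a5. The largest falls were those of Slc6a13, which also stands in the fibroblast marker list (-1.33 ± 0.33), Slc22a6 (-1.30 ± 0.39) and Slc2a12 (-1.22 ± 0.33). At 7 days against sham, Slco2a1 was still higher (1.82 ± 0.21, adjusted p = 1.05e-05) and 7 fell, beside 3.27% of all genes higher and 9.95% lower, with Slc2a13 (-1.88 ± 0.26), Slc22a6 (-1.81 ± 0.39) and the cystine light chain Slc7a11 (-1.74 ± 0.21) in front. Among the 271 other solute carriers tested, 14 rose and 39 fell at 24 h against sham (19.6% called), beside 10.0% higher and 8.23% lower over all genes. Falls thus outnumbered rises among these carriers, while over all genes more rose than fell in the deposited scaling. With libraries centred on the endothelial markers, 1153 genes rose and 1695 fell over all genes, and these carriers were not counted under that centring. The median log2 fold change of the 271 carriers was -0.12 in the deposited scaling, beside -0.02 over all genes. At 7 days 5 rose and 51 fell (20.7% called, beside 3.27% higher and 9.95% lower).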

How the data were processed

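Microvessel RNA of 24 libraries (8 groups of 3, each library a pool of 3 hemispheres) was sequenced by the authors from stranded poly(A) libraries. Per the submitters' processing notes and the paper's methods, reads were aligned to mm10 with STAR, multi-matching reads were excluded, genes were counted with featureCounts (1.5.1 in the notes), and counts were scaled with DESeq2. The versions of STAR and DESeq2 differ between both sources, and the annotation release and the strand setting of the counting are not given in the sources used here. The deposited values are such normalized counts rounded to whole numbers, treated as a score and not as reads, because the size factors are not given. The depth of sequencing in reads is therefore unknown, and no counting interval is given. The deposited gene annotation columns were used for symbols and positions.

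The values were tested with limma 3.58.1 in R 4.3.3, with a mean-variance trend, on log2(normalized count + 1), so that fold changes of low genes are understated. Genes with a mean above 5 normalized counts entered (15982 of 17270), all 8 groups were in the fit, and p-values were adjusted by Benjamini-Hochberg. Calls needed an adjusted p under 0.05 and a 1.5-fold change. The design had assumed this unit. Ratios were tested by 2-sided exact permutation tests with scipy 1.17.1. The fit was tested on simulated data. Named genes are the 9 members, the 3 genes most like each, and up to the 3 largest called changes of each list in a direction. Bsg was named as the chaperone of Slc16a1, and Slc7a6 and Slc7a7 as light chains. The members and lists were chosen with earlier results of these data known.

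The p-values measure the spread between pools of 3 hemispheres. Replicate numbers were taken to pair the hemispheres of sham mice, a pairing inferred from correlations and not stated in the sources. Deviations of same-numbered sham libraries from their group means correlated with r of 0.323, 0.410 and 0.145 at 24 h and 0.325, 0.442 and 0.467 at 7 days. Promoters came from RefSeq (GRCm38.p6) and exon lengths from GENCODE. Alternatives were another pseudocount, other filters on low values, no limit on the fold, centring on the median of all genes or on the endothelial markers, only the compared groups, replicate blocks and leaving out each library. The omission of sham pool 3 of 7 days and the ratios were added after seeing the data, as were the searches of the promoters for motifs and shared runs.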

Additional observations from a re-analysis of the deposited data

Results flagged for a closer look

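The ipsilateral stroke effect on Slc7a5 differed between the time points by a test of the difference itself. The log2 difference, 7 days minus 24 h, was 1.15 ± 0.33 (SE, limma, adjusted p = 0.0324). The 3 stroke ipsilateral libraries at 24 h (11460, 11411 and 11826 normalized counts) were below all 3 sham ipsilateral libraries, while at 7 days the groups overlapped. In 7 of 12 fits without 1 library the adjusted p was above 0.05, with the same direction in each of these.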

How the results depend on the processing

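With another pseudocount, either filter, no fold limit or median centring, the members called in the 6 stroke comparisons stayed the same in number. At 7 days against sham the count of 0 became 1 (Slc22a8) under endothelial centring and with only the compared groups, and 2 (Slc2a1 and Slc3a2) without both hemispheres of sham pool 3, where the interaction also counted 2. Between the time points Slco1c1 lost its call under endothelial centring (0.47) and with only the compared groups (adjusted p = 0.0804). Directions that reversed were of uncalled members. Under endothelial centring they were Slc7a5 at 7 days against sham (-0.090), Slc2a1 (-0.16), Slc16a1 (-0.17), Slc3a2 (-0.059) and Slco1c1 (-0.26) at 7 days against contralateral, and Slc16a1 (-0.19) and Slc3a2 (-0.074) for 7 days against 24 h. Without sham pool 3 the interaction of Slc38a5 was -0.078. The causes were not tested. Endothelial centring moved the median of all genes by -0.10 and -0.24 against sham at 24 h and 7 days, by 0.03 and -0.26 against contralateral, and by -0.22 between the time points and -0.13 in the interaction. The split of higher and lower genes at 24 h against sham was 1603 and 1316 as deposited and 1153 and 1695 with this centring. For the other comparisons it was 523 and 1591 against 233 and 2211, 1360 and 821 against 1419 and 617, 485 and 1595 against 289 and 2299, 594 and 1349 against 281 and 2485, and 389 and 908 against 179 and 1247.

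Leaving out 1 library gave 1 to 5 members called at 24 h against sham, 0 to 2 at 7 days against sham, 2 to 5 at 24 h against contralateral, 0 to 0 at 7 days against contralateral, 1 to 3 between the time points, 0 to 2 in the interaction and 0 to 1 between the time points in stroke contralateral libraries. At 24 h the lowest counts came without stroke ipsilateral library 2. In these fits the sign also turned for uncalled members. At 7 days against sham the ranges were -0.053 to 0.32 (Slc7a5), -0.014 to 0.67 (Slc38a5), -0.33 to 0.039 (Slc6a6) and -0.24 to 0.018 (Slco1c1). Against contralateral they were -0.29 to 0.057 (Slc38a5) at 24 h, and at 7 days -0.015 to 0.28 (Slc2a1), -0.21 to 0.42 (Slc16a1), -0.20 to 0.22 (Slc7a5), -0.16 to 0.82 (Slc38a5), -0.28 to 0.21 (Slco1c1) and -0.43 to 0.27 (Slco1a4). Between the time points they were -0.15 to 0.22 (Slc16a1), -0.015 to 0.29 (Slc3a2) and -0.031 to 0.52 (Slc22a8), and in the interaction -0.24 to 0.44 (Slc38a5) and -0.043 to 0.50 (Slc22a8).

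The sources used here do not say whether same-numbered hemispheres came from the same mice, for sham or for stroke. For stroke mice the correlations do not settle it. Same-numbered stroke pairs had r of 0.066, 0.360 and 0.327 at 24 h and 0.059, 0.309 and 0.064 at 7 days. Not every pair was above 0.1, but all 3 correlated best with their own number at each time. The mean r was 0.25 for the same and -0.13 for other numbers at 24 h, and 0.14 and -0.07 at 7 days. With the replicate number as a block, 5, 0, 5, 0, 2 and 1 members were called in the 6 stroke comparisons, and Slco1c1 between the time points lost its call (0.69, adjusted p = 0.0541). With the pool as a block, 5 members were called against contralateral at 24 h and 0 at 7 days. The block changed no other call.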
